A study of Homo sapiens with 10 samples.

Results

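The 58 genes described here build, fold and clear proteins of the endoplasmic reticulum (ER). They were taken by name from a list of ER chaperones, stress sensors, translocation components and degradation factors, out of 31015 genes with a counted 3′ end. The cells were 22RV1, an established castration-resistant prostate cancer line. Each of 5 groups had 2 replicate libraries: untreated control cells, cells given 20 μM SRPIN340, cells given 50 μM Endovion, cells given THZ531, and cells given THZ531 together with Endovion (the combination), with 4 h of treatment. SRPIN340 and Endovion are used as inhibitors of SRPK1, a kinase of splicing factors, and THZ531 inhibits CDK12, a kinase of elongating RNA polymerase II. The dose of THZ531 is 100 nM in the study's methods and 150 nM in the series text, and all libraries come from this single line. RNA was labelled with 4-thiouridine over the last 10 min and read from its 3′ end (SLAM-seq). A read with a T-to-C conversion (T>C read) was taken to mark RNA made during the label. All libraries were labelled, so T>C reads that come from other mismatches could not be set apart. T>C reads are called nascent RNA below, all reads are called total RNA, and T>C reads as a percent of all reads are called the labelled share. The question was which steps of the ER pathway moved with each kinase inhibitor, in new RNA and in total RNA.

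A secreted protein is caught by the signal recognition particle (SRP) while still on the ribosome, handed to the SRP receptor, threaded through the SEC61 channel and trimmed by signal peptidase. Inside the ER it is folded by chaperones such as HSPA5 (BiP), given disulphide bonds by the PDI family and checked by the lectins CALR and CANX, and misfolded chains are pulled out and degraded through the SEL1L-SYVN1 complex. The sensors ERN1 (IRE1), ATF6 and EIF2AK3 (PERK) read the folding load and raise the chaperone and degradation genes, in part through the factor XBP1. Secretory epithelia such as that of the prostate rely on this machinery.

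Promoters of ER genes are known for the ER stress response element, which ATF6 and XBP1 can use, and the copies found near the starts of these genes are shown because several chaperone genes of the list share them. RefSeq promoter windows (hg38, 250 bases before to 50 after the start) were found for 51 of the 58 genes and read on both strands. The element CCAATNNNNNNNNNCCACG stood in 8 of the 51, against 25 of all 27305 genes with a window (0.0916%). Its 2 outer blocks are in capitals below, written 5′ to 3′ on the strand of the gene.
HSPA5, chr9:125241387-125241413, gene on the minus strand: ttcaCCAATcggcggcctCCACGacgg
HSP90B1, chr12:103930212-103930238, gene on the plus strand: ctgaCCAATcggaaggagCCACGcttc
HSP90B1, chr12:103930317-103930343, gene on the plus strand: ggtgCGTGGtgcggcgcgATTGGtggg
CALR, chr19:12938380-12938406, gene on the plus strand: cacgCGTGGtcgaccatcATTGGtcgg
CANX, chr5:179698774-179698800, gene on the plus strand: ccggCCAATcttcacactCCACGaaga
PDIA6, chr2:10812849-10812875, gene on the minus strand: cggaCCAATgagccgcagCCACGgctt
XBP1, chr22:28800599-28800625, gene on the minus strand: ctggCCAATcgcggagggCCACGaccg
CRELD2, chr22:49918550-49918576, gene on the plus strand: ctctCGTGGcgaactcggATTGGgcca
ERO1B, chr1:236282179-236282205, gene on the minus strand: cccgCGTGGtcccgcctcATTGGccgc
The second form of the element, ATTGGNCCACG, stood in 3 of the 51 promoters, against 19 of all 27305 genes (0.0696%), with the whole match in capitals here.
HERPUD1, chr16:56932021-56932039, gene on the plus strand: gccgATTGGGCCACGttgg
HYOU1, chr11:119057376-119057394, gene on the minus strand: gtgaCGTGGTCCAATccca
HYOU1, chr11:119057270-119057288, gene on the minus strand: gggaCGTGGTCCAATgagt
SDF2L1, chr22:21642110-21642128, gene on the plus strand: gaagCGTGGACCAATcaaa
The shorter UPR element TGACGTGG was found in 6 of the 51 promoters, DNAJC10, HYOU1, KDELR3, SEC62, SRP19 and SSR3, and in 0.927% of all genes. In HYOU1 it overlaps the first copy of the second form shown above. An ATF4-type element, TGATGNAA, was found in HERPUD1 and SRPRB among the 51 and in 4.46% of all genes. These matches are letters in a window and were not measured as bound sites.

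The 10 libraries held between 35517462 and 53592904 mapped reads and between 1011598 and 1576121 T>C reads on genes, so the labelled share of a whole library lay between 5.05% and 5.70%. The epithelial and prostate markers KLK2, HOXB13, FOXA1, KRT8, KRT18 and EPCAM were read in every library. Of 7 markers of other cells, COL1A2 and VWF had 0 reads in all libraries, which allows up to 3 reads each by counting error alone, PECAM1 had at most 1 read, PTPRC at most 6, DCN at most 13 and CD68 at most 22, and COL1A1 had 40 to 83. In bulk RNA, fewer cells of a type and less RNA per cell cannot be told apart. The labels do not say that replicates were separate cultures, so the p-values measure the spread between these libraries, and the 4 comparisons with control share the same 2 control libraries.

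Control replicate 2 stood apart for these genes. In total RNA it was the lowest of the 10 libraries for 28 of the 57 genes tested, where 24.3% of all tested genes had their lowest value there. For 14 of the 57 its total RNA was more than 0.5 below that of control replicate 1 on the log2 scale and for 0 it was more than 0.5 above, whereas in the Endovion group the same counts were 0 and 0. In nascent RNA it was the lowest library for 14 of 55 genes, beside 16.3% of all tested genes. THZ531 replicate 2 stood apart too, as the highest of the 10 libraries in total RNA for 21 of the 57 genes, beside 17.4% of all tested genes. Calls against control were therefore repeated without control replicate 2, and whether a call held is given beside each gene. Calls lost without another library are counted below for each kind of RNA.

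In nascent RNA few ER genes passed the test, and SRP9, SEC61B and SELENOF did so with all 4 treatments. After SRPIN340, 4 of the 55 tested genes rose (all genes: 0.845%) and 0 fell (all genes: 0.191%). The 4 were SRP9, SELENOF, XBP1 and SEC61B. After Endovion, 6 rose (all genes: 2.04%), namely SRPRA, TRAM1, SRP9, HERPUD1, SELENOF and SEC61B, and 1, SPCS3, fell (all genes: 0.623%). After THZ531, 7 rose (all genes: 3.86%), namely DNAJB9, SRPRA, TRAM1, SRP9, SELENOF, SEC61B and HSP90B1, and 4 fell (all genes: 3.6%), namely CRELD1, SRP19, SEL1L and EDEM3. After the combination, 8 rose (all genes: 4.61%), the same 7 and HERPUD1, and 1, SRP19, fell (all genes: 3.49%). Calls are edgeR quasi-likelihood tests at a Benjamini-Hochberg adjusted p under 0.05 over 9946 genes.

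The median log2 fold change over the 55 genes was 0.12 with SRPIN340, 0.09 with Endovion, 0.12 with THZ531 and 0.22 with the combination. Over all tested genes the same medians were -0.01, -0.01, -0.02 and -0.01. With control replicate 2 removed, 1 of the 4 calls for SRPIN340 held (SRP9), 3 of 7 for Endovion (SRP9, SRPRA and SELENOF), 3 of 11 for THZ531 (the same 3 genes) and 4 of 9 for the combination (SRP9, SRPRA, SEC61B and TRAM1). Without THZ531 replicate 2, 3 of the 11 THZ531 calls held (SRP9, SEC61B and HSP90B1), and without THZ531 replicate 1, 7. For the combination 4 of 9 held without its replicate 1 (SRP9, SEC61B, TRAM1 and SELENOF) and 6 without its replicate 2. For Endovion 5 of 7 held without its replicate 1 and 3 without its replicate 2 (SRP9, TRAM1 and SELENOF). Without either SRPIN340 library 2 of 4 held, SRP9 and SELENOF. SRP9 was called with all 4 treatments whichever of the compared libraries was left out. Which steps of the pathway carried the calls can be seen in the map of log2 fold changes by role.

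**Figure D1:**
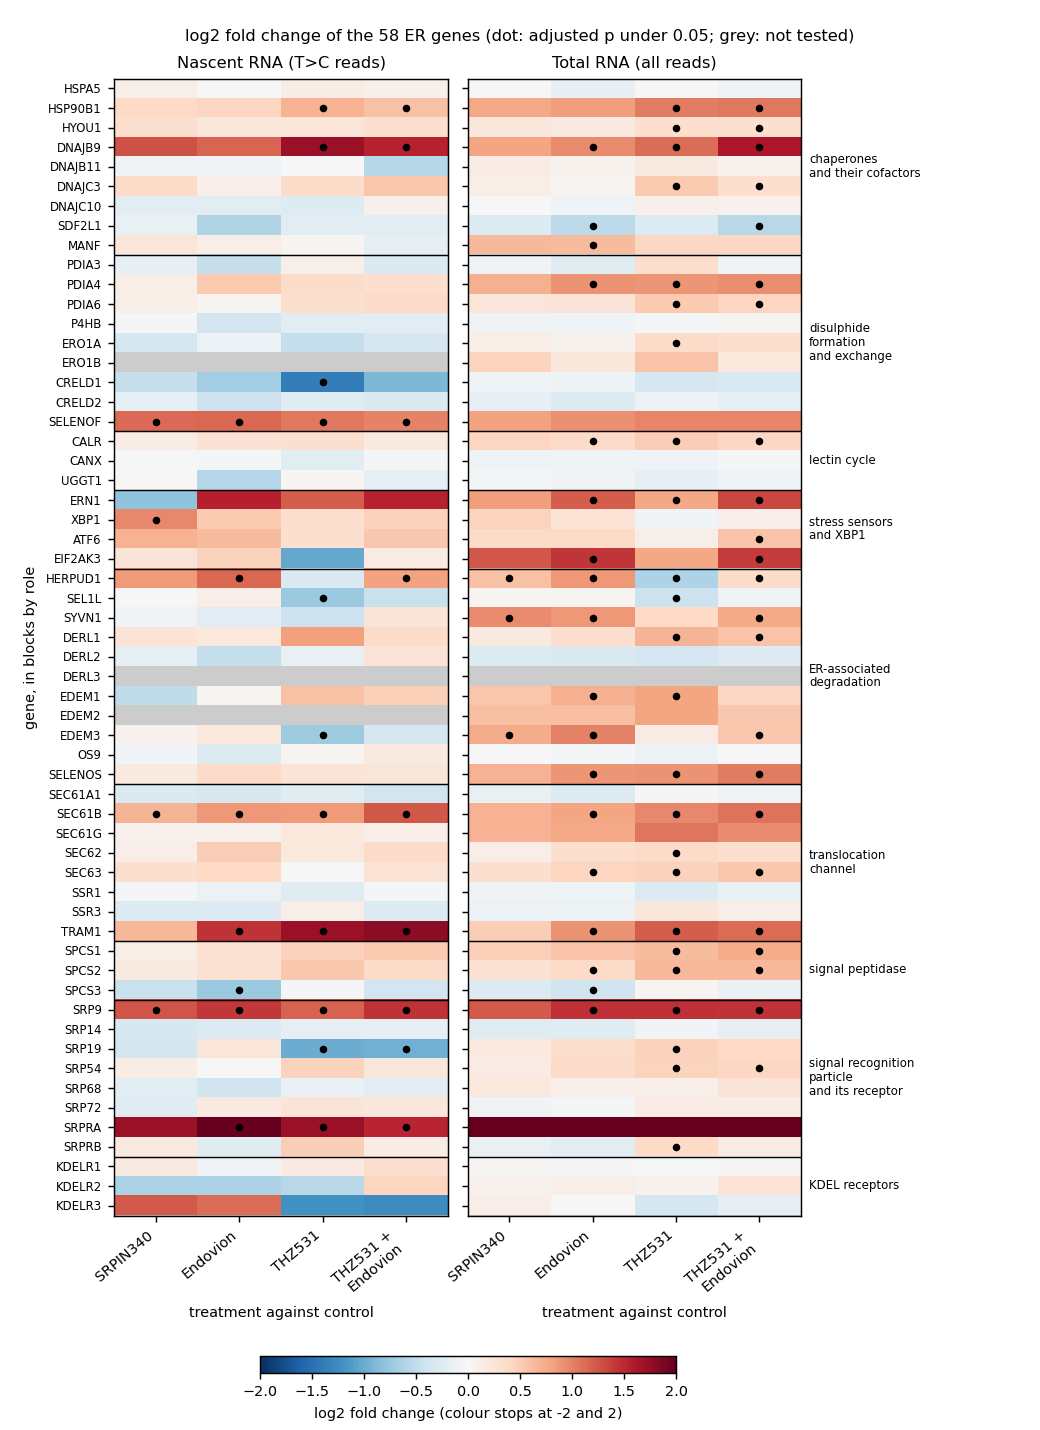
Log2 fold change against control of each ER gene (ordered by role) in nascent RNA (left) and total RNA (right) for the 4 treatments (columns), where colour gives the log2 fold change, a dot an adjusted p under 0.05 and grey a gene not tested. Nascent calls sit on SRP9, SRPRA, SEC61B, TRAM1 and SELENOF under several treatments, whereas total RNA was called higher for 22 of 57 genes after THZ531 and after the combination (all genes: 16.6% each). Of the total RNA calls in either direction, 11 of 24 and 10 of 23 held without control replicate 2.

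Of the signal recognition particle and its receptor, SRP9 and SRPRA rose in nascent RNA and SRP19 fell. SRP9, the partner of SRP14 in the domain that pauses translation while the ribosome is brought to the ER, had its counted end at chr1:225789240-225790466, plus strand. Its nascent RNA was 95.9 and 79.4 in control, 179 and 239 with SRPIN340, 227 and 240.5 with Endovion, 158 and 245 with THZ531 and 261 and 219 with the combination, in T>C reads per 1000000 normalised T>C reads, the unit of all nascent values below. All 8 treated libraries lay above both control libraries. The log2 fold change was 1.25 ± 0.21 (adjusted p = 0.000181) with SRPIN340, 1.41 ± 0.21 (adjusted p = 5.82e-06) with Endovion, 1.18 ± 0.21 (adjusted p = 8.15e-05) with THZ531 and 1.45 ± 0.21 (adjusted p = 1.15e-06) with the combination (± SE throughout). In the fit lacking control replicate 2, all 4 calls held, at 1.13 (adjusted p = 0.0268), 1.28 (adjusted p = 0.00149), 1.06 (adjusted p = 0.00644) and 1.33 (adjusted p = 0.000321) in the same order. The SRPIN340 call was lost when every interval of a gene was summed, overlapping ones counted again. The labelled share of SRP9 was 3.74 and 5.33% in control and 3.49% to 4.75% in the treated libraries, and was not called. SRP9 has 1 named pseudogene, SRP9P1, whose reads the mapping could share. Its partner SRP14 was not called in any comparison with control, with log2 values from -0.32 to -0.17.

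SRPRA, the receptor subunit that docks the particle at the membrane, was counted at chr11:126262919-126263915, minus strand, and its nascent RNA was 74.02 and 29.7 in control, 124 and 222 with SRPIN340, 242 and 185 with Endovion, 142 and 212 with THZ531 and 154 and 148 with the combination. Every treated library was above both controls, which lay far apart themselves. Log2 fold changes were 2.01 ± 0.38 (adjusted p = 0.0143) with Endovion, 1.73 ± 0.38 (adjusted p = 0.018) with THZ531 and 1.52 ± 0.39 (adjusted p = 0.0332) with the combination, and the value with SRPIN340, 1.71 (adjusted p = 0.0655), did not pass. Without control replicate 2 the 3 calls held, at 1.53 (adjusted p = 0.00112), 1.24 (adjusted p = 0.00519) and 1.03 (adjusted p = 0.0242) in the same order. They were lost without either Endovion library, without THZ531 replicate 2 and without either combination library, each for its own comparison. Total RNA of SRPRA was 13.8 and 4.50 in control, 28.5 and 71.8 with SRPIN340, 84.5 and 60.4 with Endovion, 34.2 and 78.9 with THZ531 and 54.1 and 55.8 with the combination, in reads per 1000000 normalised reads, the unit of all total RNA values below. These log2 differences, from 2.44 to 2.97, were the largest of any ER gene in total RNA, and none was called, with libraries of 1 group as far apart as the 2 SRPIN340 values. The other receptor subunit, SRPRB, was at 196 and 182 in control, 174 and 167 with SRPIN340, 164 and 162 with Endovion, 256 and 242 with THZ531 and 219 and 205 with the combination in total RNA. It rose with THZ531, by 0.40 ± 0.10 (adjusted p = 0.00814), which was not called without control replicate 2, at 0.31 (adjusted p = 0.0881). Both combination libraries lay above both controls as well, without a call.

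SRP19, which helps the particle's RNA fold and takes up SRP54, fell with THZ531 and with the combination in nascent RNA. Its nascent RNA was 97.8 and 108 in control, 104 and 56.3 with SRPIN340, 122 and 121 with Endovion, 48.8 and 54.9 with THZ531 and 55.9 and 49.2 with the combination. Both THZ531 libraries and both combination libraries lay below every other library. The log2 fold change was -0.99 ± 0.27 (adjusted p = 0.0141) with THZ531 and -0.97 ± 0.28 (adjusted p = 0.0171) with the combination, and in the combination it was also lower than with Endovion (-1.21 ± 0.28, adjusted p = 0.0121). Neither comparison with control held without control replicate 2 (-0.92, adjusted p = 0.0919, and -0.89, adjusted p = 0.11). The comparison with Endovion was not called when any 1 of its 4 libraries was left out, with an adjusted p of up to 0.124.

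SRP19 has 2 counted 3′ ends, chr5:112867404-112867935, plus strand, and chr5:112891608-112893079, plus strand, with 23672 bases between them, and the lower nascent values were at the far end. The near end, with 12083 reads of which 470 had a conversion, gave nascent values of 33.5 and 26.5 in control, 34.5 and 39.4 with SRPIN340, 32.2 and 54.8 with Endovion, 26.04 and 42.7 with THZ531 and 39.8 and 42.3 with the combination, with no treated group below the controls as a whole. The far end, with 3093 reads of which 587 had a conversion, gave 64.4 and 81.8 in control, 69.7 and 16.9 with SRPIN340, 86.7 and 66.4 with Endovion, 22.8 and 12.2 with THZ531 and 16.1 and 6.88 with the combination. Total reads at the far end were 13.8 and 12.6 in control, 13.5 and 13.7 with SRPIN340, 13.4 and 11.7 with Endovion, 11.5 and 11.8 with THZ531 and 12.7 and 10.6 with the combination, all between 10.6 and 13.8. With the single best-covered interval of each gene, the near end here, the log2 fold change of SRP19 turned to 0.17 (adjusted p = 0.854) with THZ531 and 0.45 (adjusted p = 0.526) with the combination, and that of the combination against Endovion became -0.07 (adjusted p = 0.985). The far interval covers ZRSR2P1, a transcribed processed pseudogene on the same strand, over 1470 bases, and the near interval shares 179 bases with a readthrough gene, so these reads cannot be given to SRP19 with certainty.

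**Figure D2:**
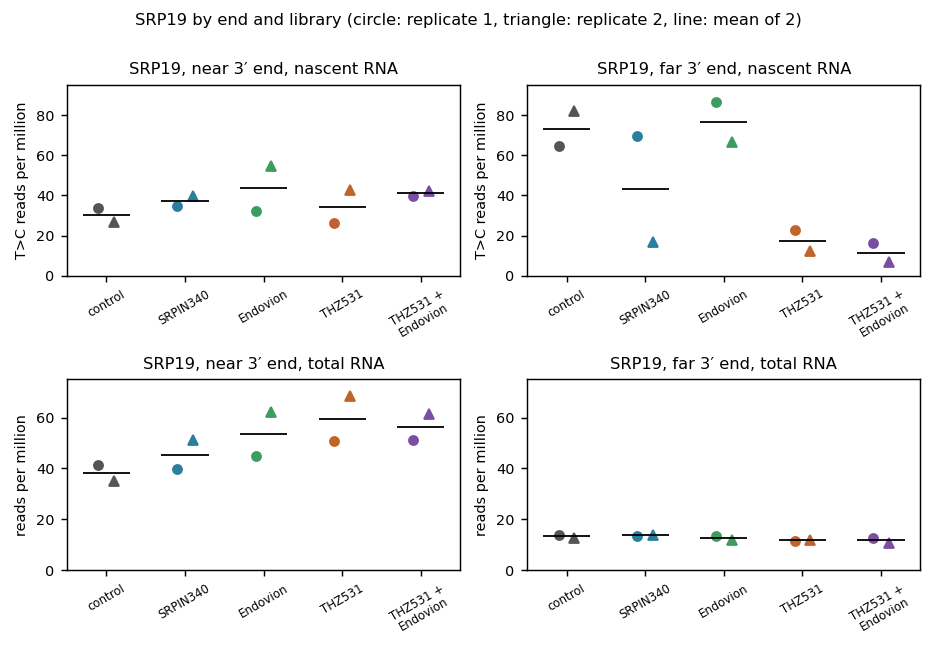
Nascent and total RNA (reads per 1000000 normalised reads of each kind) at the near and the far 3′ end of SRP19 in the 10 libraries, by treatment, where points are libraries and bars are means of 2. At the far end nascent RNA lies at 64.4 and 81.8 in control and at 6.88 to 22.8 after THZ531 and the combination, while at the near end nascent RNA lies between 26.04 and 54.8 in all 10 libraries.

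Of the remaining particle genes, SRP54 (the subunit that binds the signal sequence), SRP68 and SRP72 were not called in nascent RNA. SRP54 rose in total RNA with THZ531, by 0.44 ± 0.13 (adjusted p = 0.0183), and with the combination, by 0.42 ± 0.13 (adjusted p = 0.0271), and neither call held without control replicate 2 (0.29, adjusted p = 0.198, and 0.26, adjusted p = 0.269). Total RNA of SRP9 was 142 and 78.1 in control, 215 and 299 with SRPIN340, 295 and 314 with Endovion, 234 and 371 with THZ531 and 284 and 316 with the combination, and it rose with Endovion (1.47, adjusted p = 0.0494), THZ531 (1.46, adjusted p = 0.0245) and the combination (1.45, adjusted p = 0.0263). All 8 treated libraries were above both controls here too, but 0 of these 3 calls held without control replicate 2, which had the lowest value. SRP19, lower in nascent RNA, was higher in total RNA with THZ531: 55.5 and 48.1 in control, 53.3 and 64.99 with SRPIN340, 58.7 and 73.9 with Endovion, 62.2 and 80.5 with THZ531 and 64.2 and 71.9 with the combination, a log2 fold change of 0.46 ± 0.16 (adjusted p = 0.0384). It was 0.32 (adjusted p = 0.256) without control replicate 2.

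At the channel, the small subunit SEC61B rose with every treatment. Its end lies at chr9:99230425-99230615, plus strand, and its nascent RNA was 176 and 131 in control, 231 and 264 with SRPIN340, 249 and 313 with Endovion, 262 and 296 with THZ531 and 319 and 411 with the combination. The 2 control libraries were the lowest of the 10. Log2 fold changes were 0.68 ± 0.18 (adjusted p = 0.0462) with SRPIN340, 0.86 ± 0.18 (adjusted p = 0.002) with Endovion, 0.85 ± 0.18 (adjusted p = 0.00122) with THZ531 and 1.24 ± 0.18 (adjusted p = 2.10e-06) with the combination, and without control replicate 2 the last held, at 1.05 (adjusted p = 0.00102), and the other 3 did not. Total RNA of SEC61B was 179 and 104 in control, 218 and 239 with SRPIN340, 231 and 261 with Endovion, 254 and 296 with THZ531 and 317 and 282 with the combination, and it rose with Endovion (0.79, adjusted p = 0.0424), THZ531 (0.96, adjusted p = 0.00857) and the combination (1.08, adjusted p = 0.00516). Of these the Endovion call was lost without control replicate 2 (0.41, adjusted p = 0.16) and the THZ531 call without THZ531 replicate 2 (0.79, adjusted p = 0.072).

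TRAM1, a membrane protein that helps nascent chains enter the channel, had nascent RNA of 19.9 and 12.8 in control, 23 and 29.4 with SRPIN340, 57.5 and 32.7 with Endovion, 44.9 and 66.1 with THZ531 and 62.7 and 52.1 with the combination. Every treated library, those with SRPIN340 included, lay above both controls. The log2 fold change was 1.45 ± 0.39 (adjusted p = 0.0218) with Endovion, 1.72 ± 0.38 (adjusted p = 0.00175) with THZ531 and 1.79 ± 0.38 (adjusted p = 0.00108) with the combination, on 16 to 75 T>C reads per library, and 0.66 (adjusted p = 0.597) with SRPIN340. With control replicate 2 removed, the combination's call held, at 1.52 (adjusted p = 0.0415), and those of THZ531 and Endovion did not, at 1.45 (adjusted p = 0.0508) and 1.19 (adjusted p = 0.277). Total RNA of TRAM1 was 39.5 and 24.4 in control, 42.1 and 47.97 with SRPIN340, 60.7 and 58.5 with Endovion, 60.5 and 88.2 with THZ531 and 67.5 and 71.7 with the combination. It rose with Endovion (0.89, adjusted p = 0.0232), THZ531 (1.21, adjusted p = 0.00176) and the combination (1.12, adjusted p = 0.00297), of which the Endovion call was lost without control replicate 2 (0.55, adjusted p = 0.176).

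SEC61G is the other small channel subunit. Nascent RNA of SEC61G was 445 and 343 in control, 423 and 414 with SRPIN340, 336 and 506 with Endovion, 405 and 507 with THZ531 and 409 and 457 with the combination, with log2 differences from 0.09 to 0.21 that were not called. Total RNA was 245 and 121 in control, 288 and 308 with SRPIN340, 259.9 and 362 with Endovion, 327 and 439.9 with THZ531 and 332 and 378 with the combination, with log2 differences up to 1.06, also not called, and control replicate 2 far below the rest. Its labelled share is given further below. The pore subunit SEC61A1, SSR1 and SSR3 were not called in either kind of RNA. SEC63, which links the channel to HSPA5, rose in total RNA with Endovion (0.43, adjusted p = 0.0406), THZ531 (0.45, adjusted p = 0.0143) and the combination (0.54, adjusted p = 0.00589), and its partner SEC62 with THZ531 (0.38, adjusted p = 0.0398). None of these calls held without control replicate 2. In that fit the SEC63 values were 0.34 (adjusted p = 0.292), 0.37 (adjusted p = 0.111) and 0.45 (adjusted p = 0.0626). The SEC62 value was 0.25 (adjusted p = 0.293).

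**Figure D3:**
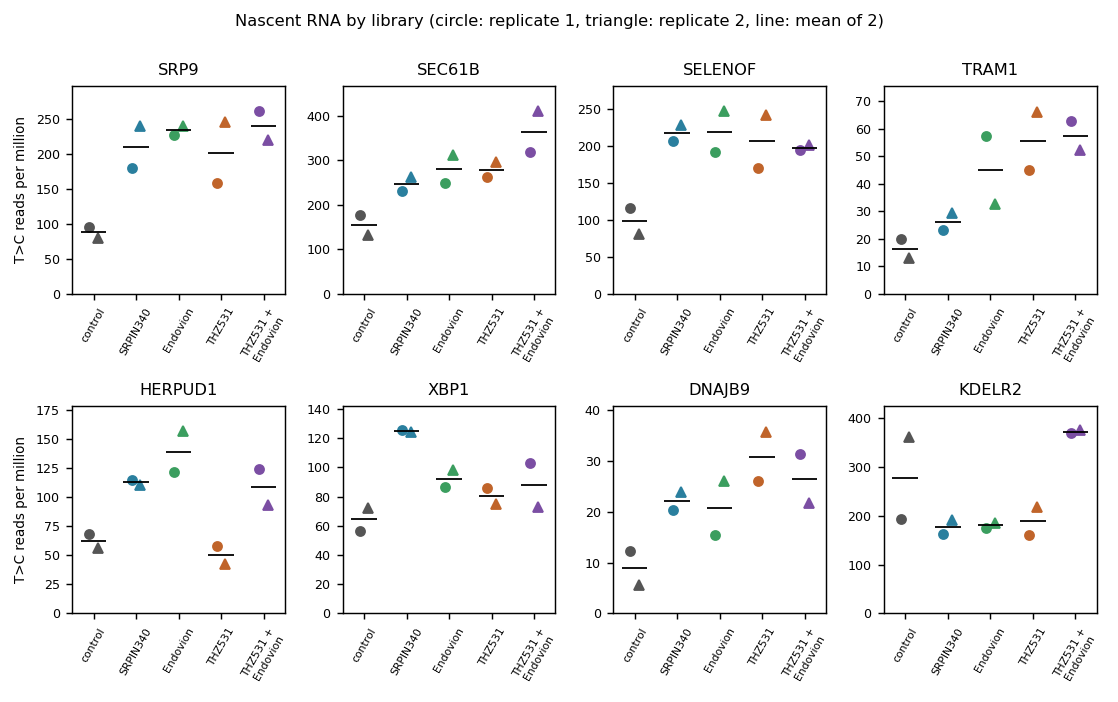
Nascent RNA (T>C reads per 1000000 normalised T>C reads) of SRP9, SEC61B, SELENOF, TRAM1, HERPUD1, XBP1, DNAJB9 and KDELR2 in the 10 libraries by treatment, where points are libraries and bars are means of 2. SRP9, SEC61B and SELENOF lie above both controls in all 8 treated libraries, HERPUD1 is at 42.7 and 57.9 with THZ531 but 93.4 and 125 with the combination, and KDELR2 is high in control replicate 2 and in the combination.

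Signal peptidase cuts the signal sequence once the chain is in the channel, and its subunits differed in direction. SPCS3, a subunit of the complex, had nascent RNA of 242 and 239.9 in control, 172 and 182 with SRPIN340, 165 and 123 with Endovion, 241 and 235 with THZ531 and 175 and 196 with the combination. It fell with Endovion (log2 fold change -0.74 ± 0.19, adjusted p = 0.0151) to levels below both controls, and its total RNA, 309 and 323 in control, 264 and 262 with SRPIN340, 247 and 233 with Endovion, 327 and 329.9 with THZ531 and 278 and 290.3 with the combination, fell with Endovion too (-0.40, adjusted p = 0.0186). Neither fall held without control replicate 2 (nascent -0.74, adjusted p = 0.0928, total -0.41, adjusted p = 0.0855). SPCS2 rose, with total RNA of 122 and 110 in control, 140.4 and 142 with SRPIN340, 143 and 158 with Endovion, 167 and 197 with THZ531 and 179 and 185 with the combination. That was a rise of 0.38 ± 0.11 (adjusted p = 0.0438) with Endovion, 0.65 ± 0.11 (adjusted p = 0.00074) with THZ531 and 0.65 ± 0.11 (adjusted p = 0.000768) with the combination, of which the last 2 held without control replicate 2 (0.54, adjusted p = 0.0123, and 0.53, adjusted p = 0.0144) and the first did not (0.26, adjusted p = 0.358). SPCS1 rose in total RNA with THZ531 (0.64, adjusted p = 0.0476) and the combination (0.74, adjusted p = 0.0281), and neither call held without control replicate 2 (0.27, adjusted p = 0.223, and 0.36, adjusted p = 0.104). SPCS2 nascent RNA, 119.7 and 81.8 in control, 112 and 118 with SRPIN340, 120.5 and 128 with Endovion, 124 and 173 with THZ531 and 129.6 and 134 with the combination, was not called.

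Among the disulphide genes, SELENOF, a selenoprotein that works with the glucosyltransferase UGGT1, rose in nascent RNA with all 4 treatments. Its nascent RNA at chr1:86862445-86863473, minus strand, was 115 and 81.04 in control, 206 and 228 with SRPIN340, 191 and 247 with Endovion, 169.9 and 242 with THZ531 and 194 and 201 with the combination. No treated library overlapped the controls. Log2 fold changes were 1.14 ± 0.20 (adjusted p = 0.000603) with SRPIN340, 1.15 ± 0.21 (adjusted p = 0.000179) with Endovion, 1.05 ± 0.21 (adjusted p = 0.000367) with THZ531 and 0.999 ± 0.21 (adjusted p = 0.000664) with the combination. In the fit lacking control replicate 2, the Endovion and THZ531 calls held (0.92, adjusted p = 0.0374, and 0.83, adjusted p = 0.034), and those for SRPIN340 and the combination did not (0.92, adjusted p = 0.102, and 0.78, adjusted p = 0.0534). Total RNA of SELENOF was 87.98 and 42.6 in control, 104 and 124 with SRPIN340, 106 and 140.1 with Endovion, 102 and 156 with THZ531 and 117 and 139.7 with the combination, higher in all 8 treated libraries but not called, with log2 differences from 0.81 to 0.98.

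The thioredoxin-like enzyme PDIA4 rose in total RNA and was not called in nascent RNA. Its total RNA was 136 and 85.9 in control, 174 and 191 with SRPIN340, 210.5 and 202 with Endovion, 182 and 226 with THZ531 and 204 and 219.6 with the combination, a log2 fold change of 0.89 ± 0.18 (adjusted p = 0.0107) with Endovion, 0.88 ± 0.18 (adjusted p = 0.00363) with THZ531 and 0.93 ± 0.18 (adjusted p = 0.00279) with the combination. The THZ531 and combination calls held without control replicate 2 (0.55, adjusted p = 0.0157, and 0.59, adjusted p = 0.0116) and the Endovion call did not (0.55, adjusted p = 0.0655). PDIA4 nascent RNA, 232 and 222 in control, 269 and 229 with SRPIN340, 322 and 327 with Endovion, 282 and 302 with THZ531 and 274 and 299 with the combination, was not called. PDIA6 had total RNA of 251 and 199 in control, 262 and 272 with SRPIN340, 272 and 264 with Endovion, 322 and 324 with THZ531 and 299.5 and 305 with the combination and rose with THZ531 (0.52 ± 0.11, adjusted p = 0.00307) and the combination (0.42 ± 0.11, adjusted p = 0.0112). Neither call held without control replicate 2 (0.32, adjusted p = 0.0648, and 0.22, adjusted p = 0.212). Its nascent RNA, 225 and 235 in control, 253 and 254 with SRPIN340, 260.1 and 217 with Endovion, 269 and 305 with THZ531 and 287 and 314 with the combination, overlapped between Endovion and control. The oxidase ERO1A rose in total RNA with THZ531 (0.38, adjusted p = 0.0307, without control replicate 2 0.28, adjusted p = 0.223). PDIA3, P4HB and CRELD2 were called in neither.

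CRELD1, a membrane protein with disulphide exchange activity, fell in nascent RNA with THZ531. Its nascent RNA was 37.98 and 52.96 in control, 41.3 and 24.4 with SRPIN340, 30.7 and 25.01 with Endovion, 14.97 and 20.3 with THZ531 and 29.7 and 18.7 with the combination, lower in both THZ531 libraries than in all 8 others except combination replicate 2, and the log2 fold change was -1.38 ± 0.42 (adjusted p = 0.029). Without control replicate 2 it was -1.12 (adjusted p = 0.218). Its total RNA, 13.7 and 11.9 in control, 13.1 and 11.2 with SRPIN340, 12.4 and 11.4 with Endovion, 10.4 and 9.81 with THZ531 and 13.03 and 7.59 with the combination, was not called. Its counted ends overlap a readthrough gene on the same strand, whose reads cannot be separated from its own.

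The main ER chaperone, HSPA5, was not called in any readout. Its nascent RNA was 717 and 727 in control, 799.6 and 775 with SRPIN340, 664 and 783 with Endovion, 845 and 755 with THZ531 and 801 and 740.5 with the combination, and its total RNA was 1020 and 1133 in control, 1059 and 1074 with SRPIN340, 892 and 1034 with Endovion, 1118 and 1043 with THZ531 and 1039 and 998 with the combination. In total RNA each treated group overlapped the controls, and in nascent RNA the Endovion libraries did while the others lay a little above. The log2 fold change in nascent RNA was 0.12 with SRPIN340 (95% interval -0.17 to 0.41), 0.00 with Endovion (-0.29 to 0.29), 0.15 with THZ531 (-0.14 to 0.44) and 0.09 with the combination (-0.20 to 0.39). In total RNA the 4 values were -0.01, -0.16, 0.01 and -0.08, none of them called.

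HSP90B1 (GRP94), the ER chaperone of the HSP90 family, did rise. Nascent RNA was 463 and 314 in control, 534 and 493 with SRPIN340, 540.2 and 509.8 with Endovion, 657 and 609 with THZ531 and 606 and 558 with the combination, with every treated library above both controls. The log2 fold change was 0.70 ± 0.16 (adjusted p = 0.00206) with THZ531 and 0.58 ± 0.16 (adjusted p = 0.0134) with the combination. Total RNA was 471 and 254 in control, 626 and 600.4 with SRPIN340, 641 and 648 with Endovion, 717 and 751 with THZ531 and 774 and 732 with the combination, up by 1.02 ± 0.23 (adjusted p = 0.0111) and 1.05 ± 0.23 (adjusted p = 0.0101) in the same order. With control replicate 2 removed, the total RNA calls held (0.60, adjusted p = 0.00268, and 0.63, adjusted p = 0.00228) and the nascent calls did not (0.45, adjusted p = 0.154, and 0.33, adjusted p = 0.351). The total RNA calls were lost without THZ531 replicate 2 (0.93, adjusted p = 0.0757) and without either combination library.

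DNAJB9 (ERdj4), a cochaperone of HSPA5 and a known target of XBP1, was sparse in nascent RNA, with 7 to 40 T>C reads per library. Its nascent RNA was 12.2 and 5.62 in control, 20.3 and 23.8 with SRPIN340, 15.3 and 25.97 with Endovion, 26.04 and 35.6 with THZ531 and 31.4 and 21.6 with the combination, and every treated library was above both controls. It rose by 1.73 ± 0.50 (adjusted p = 0.0211) with THZ531 and 1.54 ± 0.51 (adjusted p = 0.0464) with the combination, while 1.27 (adjusted p = 0.293) with SRPIN340 and 1.16 (adjusted p = 0.276) with Endovion did not pass. Total RNA was 12.1 and 7.99 in control, 17.8 and 17.1 with SRPIN340, 20.4 and 18.2 with Endovion, 18.8 and 24.8 with THZ531 and 34.2 and 27.7 with the combination. It rose with Endovion (0.94, adjusted p = 0.0103), THZ531 (1.11, adjusted p = 0.00101) and the combination (1.62, adjusted p = 7.57e-05), and the combination was also higher than Endovion by 0.68 ± 0.20 (adjusted p = 0.0458). In the fit lacking control replicate 2, the total RNA calls for THZ531 and the combination held, at 0.81 (adjusted p = 0.0196) and 1.32 (adjusted p = 0.00119), and that for Endovion did not, at 0.63 (adjusted p = 0.172). Neither nascent call held in that fit (1.31, adjusted p = 0.218, and 1.12, adjusted p = 0.329).

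DNAJC3 (p58IPK), another cochaperone, had nascent RNA of 116 and 89.9 in control, 145 and 125 with SRPIN340, 109.7 and 111 with Endovion, 122 and 146 with THZ531 and 161 and 144 with the combination, which was not called. Its total RNA, 104 and 106 in control, 113 and 115 with SRPIN340, 108 and 111 with Endovion, 133 and 169.7 with THZ531 and 138 and 129 with the combination, rose with THZ531 (0.53 ± 0.12, adjusted p = 0.00405) and the combination (0.34 ± 0.12, adjusted p = 0.0419), with all 4 of those libraries above the others. The THZ531 call held without control replicate 2 (0.51, adjusted p = 0.0266) but not without THZ531 replicate 2 (0.29, adjusted p = 0.159), and the combination's did not hold when any of the 10 libraries was left out. HYOU1, the nucleotide exchange factor of HSPA5, rose in total RNA with THZ531 (0.34, adjusted p = 0.0233) and the combination (0.31, adjusted p = 0.035), and without control replicate 2 was at 0.35 (adjusted p = 0.0616) and 0.32 (adjusted p = 0.0924). SDF2L1, part of the HSPA5 complex, went down instead. Its total RNA was 296 and 411 in control, 306 and 277 with SRPIN340, 239 and 255 with Endovion, 319.5 and 268 with THZ531 and 236 and 245 with the combination, a called log2 fold change of -0.52 ± 0.14 (adjusted p = 0.0268) with Endovion and -0.55 ± 0.14 (adjusted p = 0.00827) with the combination. Control replicate 2 was its highest library, and without it the values were -0.31 (adjusted p = 0.252) and -0.34 (adjusted p = 0.085). Nascent RNA of SDF2L1, 213 and 282 in control, 235 and 208 with SRPIN340, 171 and 153 with Endovion, 228 and 199 with THZ531 and 219 and 209.5 with the combination, was not called. DNAJB11, whose end lies inside a readthrough gene, and DNAJC10 were called in neither.

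MANF, a secreted factor that binds HSPA5, rose in total RNA with Endovion. Total RNA was 196 and 124 in control, 239 and 263 with SRPIN340, 246 and 251 with Endovion, 195 and 232 with THZ531 and 221 and 205 with the combination, and the log2 fold change with Endovion was 0.64 ± 0.17 (adjusted p = 0.0323). Without control replicate 2, the lowest library, it was 0.30 (adjusted p = 0.286) and not called. Nascent RNA, 570.3 and 425 in control, 569.6 and 615 with SRPIN340, 556 and 538 with Endovion, 516 and 518 with THZ531 and 453 and 419 with the combination, was not called. Of the lectin cycle, CALR had total RNA of 412 and 328 in control, 494 and 507 with SRPIN340, 471 and 492 with Endovion, 529 and 509.8 with THZ531 and 483 and 509.6 with the combination, with all treated libraries above both controls. Its rise was called with Endovion (0.38 ± 0.11, adjusted p = 0.041), THZ531 (0.49 ± 0.11, adjusted p = 0.00446) and the combination (0.42 ± 0.11, adjusted p = 0.0112), and 0 of the 3 calls held without control replicate 2. CALR nascent RNA, 285 and 238 in control, 291 and 289.8 with SRPIN340, 292 and 346 with Endovion, 354 and 297 with THZ531 and 282 and 319 with the combination, was not called, and neither CANX nor UGGT1 was called in any readout.

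XBP1, the factor whose mRNA is spliced by ERN1, rose in nascent RNA with SRPIN340 and was not called with the other 3 treatments. Its values were 56.6 and 72.2 in control, 126 and 125 with SRPIN340, 86.7 and 98.1 with Endovion, 85.9 and 75.2 with THZ531 and 103 and 72.8 with the combination, and the 2 SRPIN340 libraries were the highest of the 10. The log2 fold change was 0.96 ± 0.25 (adjusted p = 0.034) with SRPIN340, and 0.52 (adjusted p = 0.343) with Endovion, which is not shown to differ from it (Endovion against SRPIN340 -0.44, adjusted p = 1). Without control replicate 2 the SRPIN340 value was 1.14. The call was lost when any library of the 2 compared groups was left out, so it rests on all of them. It was also lost with DESeq2 and when every interval of a gene was summed. Total RNA of XBP1, 103 and 104 in control, 141 and 142 with SRPIN340, 119.8 and 130.4 with Endovion, 111 and 88.8 with THZ531 and 109 and 112 with the combination, was not called. The reads come from the 3′ end and do not tell the spliced from the unspliced form.

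Of the 3 sensors in total RNA, ERN1 rose with 3 treatments, EIF2AK3 with 2 and ATF6 with the combination, and with SRPIN340 0 of the 3 were called. ERN1 had 85 to 277 reads per library, giving 4.35 and 3.58 in control, 7.59 and 6.58 with SRPIN340, 10.6 and 7.76 with Endovion, 5.20 and 8.47 with THZ531 and 11.1 and 8.95 with the combination. It rose with Endovion (1.21 ± 0.27, adjusted p = 0.011), THZ531 (0.77 ± 0.27, adjusted p = 0.0414) and the combination (1.33 ± 0.27, adjusted p = 0.00206), and the last held without control replicate 2, at 1.16 (adjusted p = 0.0291), whereas the others were 1.04 (adjusted p = 0.137) and 0.60 (adjusted p = 0.232). ERN1 has 2 counted ends, and the lesser one holds 23.6% of its reads. Total RNA at that end was 0.392 and 0.883 in control, 0.823 and 1.05 with SRPIN340, 2.18 and 0.989 with Endovion, 1.55 and 4.24 with THZ531 and 3.29 and 3.03 with the combination. At the main end it was 3.96 and 2.69 in control, 6.77 and 5.53 with SRPIN340, 8.42 and 6.78 with Endovion, 3.65 and 4.24 with THZ531 and 7.76 and 5.91 with the combination. With 1 interval per gene, the main end, the THZ531 value became 0.24 (adjusted p = 0.542), and the calls with Endovion and the combination held. Nascent RNA of ERN1, 5.79 and 0.802 in control, 0 and 3.76 with SRPIN340, 4.60 and 16.4 with Endovion, 4.56 and 12.2 with THZ531 and 7.63 and 12.8 with the combination, rested on 0 to 17 T>C reads and was not called. EIF2AK3 had total RNA of 5.67 and 2.78 in control, 8.15 and 11.98 with SRPIN340, 10.1 and 12.7 with Endovion, 6.12 and 8.53 with THZ531 and 10.1 and 12.3 with the combination and rose with Endovion (1.42 ± 0.31, adjusted p = 0.0115) and the combination (1.39 ± 0.31, adjusted p = 0.00453), with all treated libraries above both controls and neither call held without control replicate 2. Nascent RNA of EIF2AK3 was 30.2 and 27.3 in control, 35.2 and 33.8 with SRPIN340, 18.4 and 62.5 with Endovion, 18.9 and 8.13 with THZ531 and 33.9 and 30.5 with the combination, without a call. The third sensor, ATF6, had nascent RNA of 24.5 and 25.7 in control, 37.9 and 43.2 with SRPIN340, 44.5 and 32.7 with Endovion, 29.9 and 32.5 with THZ531 and 35.6 and 37.4 with the combination, which was not called. Its total RNA was 30.5 and 31.3 in control, 36.9 and 43.2 with SRPIN340, 42.7 and 38.3 with Endovion, 33.6 and 33.2 with THZ531 and 50.5 and 41.5 with the combination, a rise of 0.58 ± 0.14 (adjusted p = 0.00703) with the combination that held without control replicate 2, at 0.55 (adjusted p = 0.0457), and not without combination replicate 1, at 0.37 (adjusted p = 0.145).

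HERPUD1, a membrane protein that organises the SYVN1 degradation complex, was called in both directions in total RNA, higher with 3 treatments and lower with THZ531. Its nascent RNA at chr16:56943291-56944863, plus strand, was 68.2 and 56.2 in control, 115 and 111 with SRPIN340, 122 and 157 with Endovion, 57.9 and 42.7 with THZ531 and 125 and 93.4 with the combination. With THZ531 the libraries lay in and below the control range, and all 6 libraries with SRPIN340 or Endovion were above them. It rose by 1.15 ± 0.25 (adjusted p = 0.00239) with Endovion and 0.81 ± 0.25 (adjusted p = 0.0346) with the combination, and was at -0.29 (adjusted p = 0.59) with THZ531. Total RNA was 141 and 116 in control, 198 and 189 with SRPIN340, 223 and 246 with Endovion, 90.9 and 76.2 with THZ531 and 178 and 155 with the combination. There it rose with SRPIN340 (0.59 ± 0.13, adjusted p = 0.0337), Endovion (0.87 ± 0.13, adjusted p = 0.00215) and the combination (0.37 ± 0.13, adjusted p = 0.0374) and fell with THZ531 (-0.62 ± 0.13, adjusted p = 0.00215). With control replicate 2 removed, the total RNA calls for Endovion and THZ531 held, at 0.68 (adjusted p = 0.0262) and -0.80 (adjusted p = 0.000963), and those for SRPIN340 and the combination did not, at 0.42 (adjusted p = 0.414) and 0.19 (adjusted p = 0.376). Both nascent calls were lost too, at 1.03 (adjusted p = 0.0872) and 0.68 (adjusted p = 0.234).

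EDEM3, a mannosidase that marks glycoproteins for removal, had total RNA of 87.8 and 65.8 in control, 113 and 145 with SRPIN340, 156 and 152 with Endovion, 76.8 and 96.3 with THZ531 and 115 and 109 with the combination, and it rose with SRPIN340 (0.75 ± 0.16, adjusted p = 0.0319), Endovion (0.998 ± 0.16, adjusted p = 0.00249) and the combination (0.54 ± 0.16, adjusted p = 0.0177). The Endovion call held without control replicate 2, at 0.76 (adjusted p = 0.0341), and the others did not, at 0.51 (adjusted p = 0.373) and 0.30 (adjusted p = 0.228). Its nascent RNA was 169 and 172 in control, 160.3 and 204 with SRPIN340, 226 and 168 with Endovion, 101 and 109 with THZ531 and 165 and 105 with the combination. There it fell with THZ531 (-0.71 ± 0.21, adjusted p = 0.0289, without control replicate 2 -0.69, adjusted p = 0.109), and both THZ531 libraries were below both controls. Its relative EDEM1 rose in total RNA with Endovion (0.71, adjusted p = 0.0244) and THZ531 (0.79, adjusted p = 0.00559). The first was lost without control replicate 2 (0.68, adjusted p = 0.173) and the second without THZ531 replicate 2 (0.70, adjusted p = 0.0542).

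SYVN1 (HRD1), the ubiquitin ligase of the pathway, had total RNA of 22.2 and 14.3 in control, 35.2 and 35.4 with SRPIN340, 32.2 and 34.9 with Endovion, 26.8 and 21.2 with THZ531 and 33.5 and 28.1 with the combination. It rose with SRPIN340 (0.95 ± 0.19, adjusted p = 0.0245), Endovion (0.87 ± 0.19, adjusted p = 0.0103) and the combination (0.75 ± 0.19, adjusted p = 0.00817), 0 of which held without control replicate 2. Nascent RNA of SYVN1, 13.5 and 34.5 in control, 17.6 and 27.5 with SRPIN340, 15.3 and 25.97 with Endovion, 24.1 and 10.2 with THZ531 and 27.1 and 29.5 with the combination, was not called. Its partner SEL1L fell with THZ531, in nascent RNA with a log2 fold change of -0.75 ± 0.24 (adjusted p = 0.0463) from 106 and 154 in control to 71.6 and 83.4, and in total RNA at -0.43 ± 0.13 (adjusted p = 0.0236) from 113 and 141 to 103 and 85.9. In the fit lacking control replicate 2, these were -0.45 (adjusted p = 0.448) and -0.30 (adjusted p = 0.16).

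DERL1, a membrane protein of the retrotranslocation route, had total RNA of 50.6 and 48.8 in control, 54.5 and 59.6 with SRPIN340, 62.8 and 62.5 with Endovion, 77.2 and 82.1 with THZ531 and 78.9 and 68.5 with the combination, and the 4 libraries with THZ531 were the highest. It rose with THZ531 (0.68 ± 0.12, adjusted p = 0.000813) and the combination (0.57 ± 0.12, adjusted p = 0.00293), and both held without control replicate 2 (0.62, adjusted p = 0.00974, and 0.50, adjusted p = 0.0319), while the combination's was lost without its replicate 1 (0.40, adjusted p = 0.0744). Its nascent RNA, 39.3 and 44.1 in control, 52.1 and 48.2 with SRPIN340, 46.04 and 50.98 with Endovion, 65.1 and 82.3 with THZ531 and 57.6 and 50.2 with the combination, was not called. SELENOS, a selenoprotein that recruits the extraction machinery, had total RNA of 48.5 and 27.6 in control, 61.6 and 61.5 with SRPIN340, 70.3 and 70.8 with Endovion, 66.3 and 75.7 with THZ531 and 79.6 and 76.6 with the combination. It rose with Endovion (0.89 ± 0.20, adjusted p = 0.0138), THZ531 (0.90 ± 0.20, adjusted p = 0.00442) and the combination (1.03 ± 0.20, adjusted p = 0.00211), and the last 2 held without control replicate 2. The Endovion call did not (0.50, adjusted p = 0.0947), and the THZ531 call was lost without THZ531 replicate 2 (0.75, adjusted p = 0.0511). Its nascent RNA, 79.8 and 64.2 in control, 77.8 and 88.3 with SRPIN340, 85.9 and 103 with Endovion, 87.2 and 88.5 with THZ531 and 68.6 and 102 with the combination, was not called. DERL2 and OS9 were called in neither. EDEM2 had too few T>C reads to test (at most 8 per library) and was not called in total RNA.

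In total RNA more ER genes passed than in nascent RNA after Endovion, THZ531 and the combination, as did more of all genes. After SRPIN340, 3 of 57 rose (all genes: 1.82%) and 0 fell (all genes: 0.143%). The 3 were HERPUD1, SYVN1 and EDEM3, all listed as degradation genes. At an unadjusted p under 0.05 in edgeR, 24 of the 57 passed, as did 2835 of 14690 genes. Other settings called 0 to 15 ER genes here, so which roles are called depends on the threshold. After Endovion, 16 rose (all genes: 8.9%) and 2, SDF2L1 and SPCS3, fell (all genes: 2.53%). After THZ531, 22 rose (all genes: 16.6%) and 2, HERPUD1 and SEL1L, fell (all genes: 14.1%). After the combination, 22 rose (all genes: 16.6%) and 1, SDF2L1, fell (all genes: 12.4%). By role, THZ531 raised 4 of 9 chaperone genes, 3 of 9 disulphide genes, 3 of 10 tested degradation genes, 4 of 8 channel genes, 4 of 8 particle and receptor genes, 2 of 3 signal peptidase genes, 1 of 3 lectin cycle genes, 1 of 4 sensors and XBP1 and 0 of the 3 KDEL receptors. The 2 that fell were degradation genes.

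The median log2 fold change over the 57 genes in total RNA was 0.20 with SRPIN340, 0.25 with Endovion, 0.38 with THZ531 and 0.33 with the combination. Over all tested genes it was 0.03, 0.02, -0.01 and -0.00. Without control replicate 2, 0 of the 3 calls held for SRPIN340, 2 of 18 for Endovion (HERPUD1 and EDEM3), 11 of 24 for THZ531 and 10 of 23 for the combination. TRAM1, SEC61B, SPCS2, DNAJB9, SELENOS, DERL1, PDIA4 and HSP90B1 were in both of the last 2 sets, with HERPUD1, DNAJC3 and EDEM1 besides for THZ531 and ATF6 and ERN1 for the combination. Without THZ531 replicate 2, 8 of the 24 THZ531 calls held (HERPUD1, TRAM1, SPCS2, DNAJB9, DERL1, PDIA4, PDIA6 and CALR). Without combination replicate 1, 9 of its 23 held (TRAM1, SEC61B, SPCS2, SDF2L1, DNAJB9, SELENOS, PDIA4, EIF2AK3 and ERN1), and without its replicate 2, 14. For Endovion 3 and 4 of 18 held without its replicates 1 and 2, HERPUD1 and EDEM3 both times, and for SRPIN340 1 and 0 of 3.

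**Figure D4:**
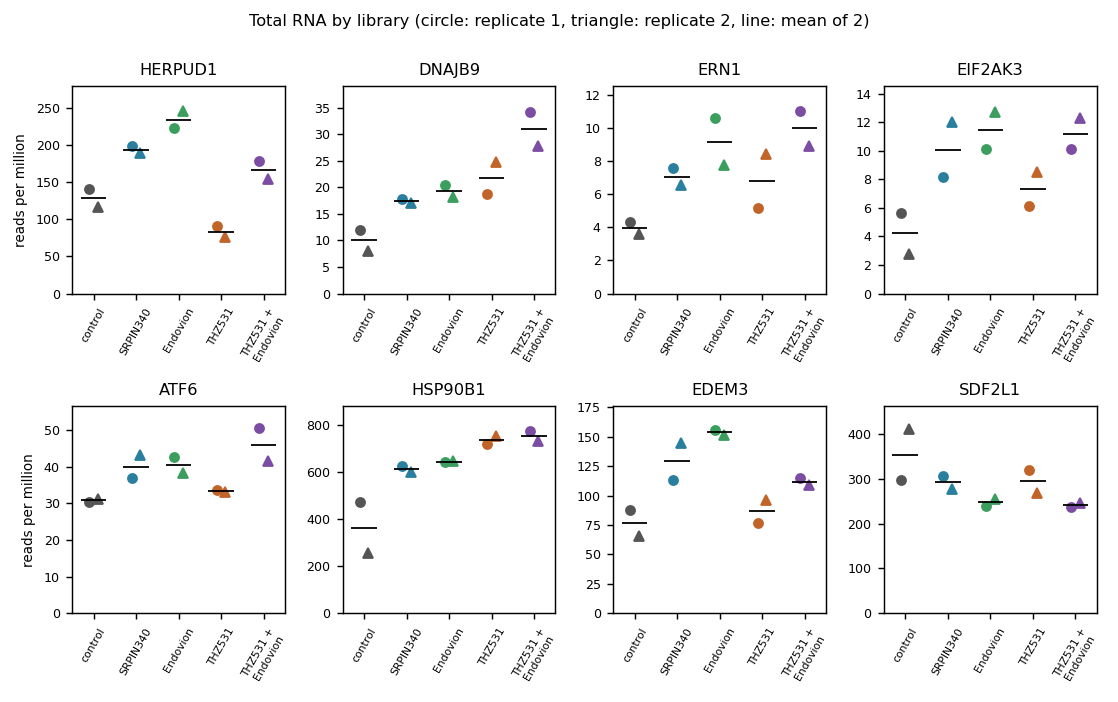
Total RNA (reads per 1000000 normalised reads) of HERPUD1, DNAJB9, ERN1, EIF2AK3, ATF6, HSP90B1, EDEM3 and SDF2L1 in the 10 libraries by treatment, where points are libraries and bars are means of 2. HERPUD1 is lowest with THZ531 (90.9 and 76.2) and highest with Endovion (223 and 246), DNAJB9 is highest with the combination (34.2 and 27.7), and control replicate 2 is the lowest library for HSP90B1 (254) and the highest for SDF2L1 (411).

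Direct comparisons between treatments leave the control libraries out of the contrast. With Endovion added to THZ531, 2 of 55 genes differed in nascent RNA from THZ531 alone (all genes, either direction: 0.322%), HERPUD1 by 1.10 ± 0.26 (adjusted p = 0.0325) and KDELR2 by 0.99 ± 0.20 (adjusted p = 0.00724). Both were higher in the combination. In total RNA 1 of 57 differed (all genes: 0.511%), HERPUD1 again, by 0.99 ± 0.13 (adjusted p = 0.00321). With THZ531 added to Endovion, 2 of 55 differed in nascent RNA (all genes: 1.31%), KDELR2 by 1.05 ± 0.20 (adjusted p = 0.00241) and SRP19, lower, by the value given above. In total RNA 3 of 57 differed (all genes: 8.22%), DNAJB9 and SRPRB higher in the combination (0.68, adjusted p = 0.0458, and 0.38, adjusted p = 0.0293) and HERPUD1 lower (-0.49 ± 0.13, adjusted p = 0.0241). HERPUD1 total RNA in the combination thus lay between its levels with THZ531 and with Endovion. The total RNA call of HERPUD1 against THZ531 held without each of the 4 compared libraries in turn. Its other 2 calls and both of KDELR2 were lost in 3 of 4 such fits, and those of SRP19, DNAJB9 and SRPRB in all 4.

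KDELR2, a receptor that returns escaped chaperones from the Golgi to the ER, had nascent RNA of 192 and 361 in control, 162 and 192 with SRPIN340, 176 and 185 with Endovion, 161 and 218 with THZ531 and 369 and 376 with the combination. Both combination libraries and control replicate 2 were high and the other 7 libraries lay between 161 and 218. Against control the combination's value was 0.43 (adjusted p = 0.18) and was not called. Total RNA of KDELR2, 163 and 144 in control, 152 and 175 with SRPIN340, 173 and 164 with Endovion, 157 and 170.5 with THZ531 and 187 and 182 with the combination, stayed between 144 and 187, and its labelled share was 6.54 and 13.2% in control and 10.2 and 10.9% in the combination, against 5.05% to 6.73% in the 6 other treated libraries. Its end at chr7:6461081-6463140, minus strand, lies within the longer gene DAGLB on the same strand. KDELR1 and KDELR3 were not called.

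An interaction term, the Endovion effect with THZ531 minus that without, was called for 2 of 55 genes in nascent RNA (all genes: 0.302%). It was 1.60 ± 0.29 (adjusted p = 0.00251) for KDELR2 and -1.20 ± 0.29 (adjusted p = 0.0415) for SELENOF, whose mean in the combination was below that with either agent alone. Neither held without control replicate 2 (1.08, adjusted p = 0.213, and -0.97, adjusted p = 0.332). The KDELR2 call was also lost without Endovion replicate 1, and the SELENOF call without 5 of the 8 treated libraries. Endovion and SRPIN340, which the study describes as structurally distinct, differed in nascent RNA for 0 of 55 genes (all genes: 0.0603%, edgeR, 6 of the 55 at an unadjusted p under 0.05). The doses were not matched, at 50 μM and 20 μM. The 95% interval of that log2 difference was -0.23 to 0.55 for SRP9, -0.18 to 0.54 for SEC61B, -0.38 to 0.40 for SELENOF and -0.18 to 0.78 for HERPUD1. True differences anywhere inside these intervals are not excluded.

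In control cells the labelled share of the ER genes had a median of 5.57%, beside 5.20% over all tested genes. EIF2AK3 (40.5%), SRPRA (32.2%), CRELD1 (19.3%), MANF (17.1%) and SEC61G (12.4%) were the highest, as means of the 2 control libraries. The EIF2AK3 mean rests on 29.6% of 159 reads and 51.5% of 66 reads. Its share was 23.9 and 14.3% with SRPIN340 and 9.06 and 25.3% with Endovion. It was 17.5 and 5.03% with THZ531 and 17.4 and 13.2% with the combination, without a call. Shares were tested as T>C reads against unconverted reads of the same library, on the log2 scale, and 0 of 55 genes went up with any treatment. The share of all genes that went up was 0.0201% with SRPIN340, 0.0201% with Endovion, 0.0302% with THZ531 and 0.0804% with the combination. With SRPIN340 0 genes went down (all genes: 0.0402%, and 12 of the 55 at an unadjusted p under 0.05 in edgeR in either direction). With Endovion 1 went down (all genes: 0.251%), with THZ531 1 (all genes: 0.0603%), and both times this was SEC61G. With the combination 6 went down (all genes: 0.724%), SEC61G, SRP19, SRPRA, EDEM3, MANF and HSP90B1.

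The labelled share of SEC61G was 10.1 and 14.8% in control, 8.13 and 6.82% with SRPIN340, 6.45 and 7.18% with Endovion, 7.01 and 6.08% with THZ531 and 6.39 and 6.44% with the combination. All 8 treated libraries were below both controls. The log2 change of the ratio was -0.92 ± 0.17 (adjusted p = 0.012) with Endovion, -0.98 ± 0.17 (adjusted p = 0.0157) with THZ531 and -1.01 ± 0.17 (adjusted p = 0.00555) with the combination. SRPRA had shares of 29.7 and 34.6% in control, 24.1 and 15.7% with SRPIN340, 14.3 and 15.7% with Endovion, 23.6 and 14.1% with THZ531 and 14.8 and 14.2% with the combination, a change of -1.45 ± 0.35 (adjusted p = 0.0411) with the combination. Its nascent and total RNA were both higher than in control, total RNA by more. For MANF the shares were 16.2 and 17.98% in control, 13.2 and 11.9% with SRPIN340, 11.3 and 11% with Endovion, 14.9 and 11.8% with THZ531 and 10.6 and 10.9% with the combination, and the combination's change was -0.77 ± 0.16 (adjusted p = 0.0213). EDEM3 went from 10.7 and 13.7% to 7.46 and 5.14% (-1.03 ± 0.23, adjusted p = 0.026), HSP90B1 from 5.45 and 6.48% to 4.05 and 4.05% (-0.57 ± 0.14, adjusted p = 0.0367) and SRP19 from 9.77 and 11.8% to 4.51 and 3.64% (-1.50 ± 0.34, adjusted p = 0.0263). With 1 interval per gene, which keeps only the near end of SRP19, its value became -0.14 (adjusted p = 0.894) and was not called. The far end, which that rule drops, covers ZRSR2P1 as described above.

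The median log2 change of the share over the 55 genes was -0.10 with SRPIN340, -0.22 with Endovion, -0.15 with THZ531 and -0.15 with the combination, beside -0.11, -0.19, -0.09 and -0.16 over all tested genes. The share calls of the combination were all lost without either combination library, and that of SEC61G with Endovion without either Endovion library. The SEC61G call with THZ531 was lost without THZ531 replicate 2. Control replicate 2 had the higher share of the 2 controls for SEC61G, SRPRA, MANF, EDEM3, HSP90B1 and SRP19, and every share call was lost without it. For SEC61G the values without it were -0.61 (adjusted p = 0.373), -0.68 (adjusted p = 0.331) and -0.71 (adjusted p = 0.142) in the order given.

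**Figure D5:**
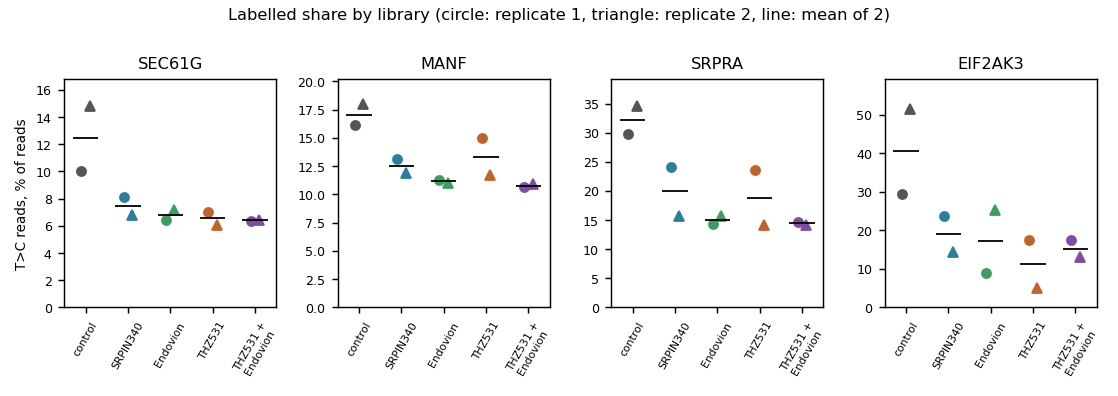
Labelled share (T>C reads as a percent of all reads of the gene) of SEC61G, MANF, SRPRA and EIF2AK3 in the 10 libraries by treatment, where points are libraries and bars are means of 2. SEC61G lies at 10.1% and 14.8% in control and at 6.08% to 8.13% in the treated libraries, and control replicate 2 is the highest library for all 4 genes.

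Set against the promoter sequences shown above, the genes with an ER stress element of either form were described by counts alone. In nascent RNA, of 10 tested genes with the element, 1 rose with SRPIN340 (XBP1), 1 with Endovion (HERPUD1), 1 with THZ531 (HSP90B1) and 2 with the combination (HSP90B1 and HERPUD1), and 0 fell. Of the 39 tested genes with a window and no such element, 3, 3, 4 and 4 rose and 0, 1, 4 and 1 fell in the same order. In total RNA, of 11 with the element, 1, 2, 4 and 5 rose and 0, 1, 1 and 1 fell, and of 40 without it, 2, 13, 15 and 14 rose and 0, 1, 1 and 0 fell. Over all genes 1.82%, 8.9%, 16.6% and 16.6% rose in total RNA, and 0.845%, 2.04%, 3.86% and 4.61% in nascent RNA. HSPA5 and CANX, which both hold it, were called in neither kind of RNA. No test was made of these counts.

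Of the 58 genes, 36 of the 57 tested (63.2%) were called in at least 1 readout with at least 1 treatment against control, as were 41.1% of all genes tested, and 22 were not, DERL3 untested among them. These percentages rest on unlike numbers of tests. Nascent RNA and labelled share were tested for 55 of the 57 ER genes but for 9946 of the 14690 genes. Not tested in nascent RNA were DERL3, EDEM2 and ERO1B, the last with 0 to 12 T>C reads per library, and not tested in total RNA was DERL3. DERL3 had 4 reads in all, 1 and 3 in the Endovion libraries, and 0 in the other 8, which allows up to 3 reads in each. Named pseudogenes exist for 11 of the 58, among them HSPA5, XBP1, SRP9, SEC61G and SPCS2, and could share reads with them.

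A further list of 59 genes of the pathway was read in the same fits. It held the oligosaccharyltransferase, other PDI relatives, ubiquitin factors of the extraction step and the stress genes ATF4, DDIT3, PPP1R15A and TRIB3, among others. Of 54 tested in nascent RNA, 0 were called with SRPIN340 (all genes: 0.845% up and 0.191% down) or Endovion (all genes: 2.04% up and 0.623% down). At an unadjusted p under 0.05 in edgeR there were 4 and 5. With THZ531, 2 rose (all genes: 3.86%) and 0 fell (all genes: 3.6%). TMX1, a membrane PDI, rose by 0.78 ± 0.17 (adjusted p = 0.00122) and DDOST, a subunit of the oligosaccharyltransferase, by 0.72 ± 0.22 (adjusted p = 0.0263). With the combination 1 rose (all genes: 4.61%) and 1 fell (all genes: 3.49%). TMX1 rose by 0.58 ± 0.17 (adjusted p = 0.0199), and UFD1, a cofactor of the extraction ATPase VCP, fell (-1.43 ± 0.42, adjusted p = 0.0212). Between the combination and Endovion, 1 was called (all genes, either direction: 1.31%), TMX3, higher by 1.19 ± 0.26 (adjusted p = 0.0102). In total RNA, of 58 tested, 0 were called with SRPIN340 (all genes: 1.82% up and 0.143% down). With Endovion 6 rose (all genes: 8.9%), with THZ531 19 rose (all genes: 16.6%) and 4 fell (all genes: 14.1%), and with the combination 15 rose (all genes: 16.6%) and 2 fell (all genes: 12.4%). The 6 were TRIB3, DDIT3, FAF2, UBXN4, RPN1 and TXNDC5. Those that fell were DDIT3, CREB3, FAF2 and MOGS with THZ531, and STUB1 and CREB3 with the combination. TRIB3 was among those that rose with the combination, and ATF4 and PPP1R15A were not called. Whether the calls of this further list held without control replicate 2 was not examined.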

How the data were processed

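SLAM-seq 3′ end libraries (QuantSeq, molecular identifiers built in, their use in counting not given in the sources used here) were made from 22RV1 RNA in 10 libraries, 5 groups of 2, grouped by GEO's treatment labels. The authors mapped reads with SLAM-DUNK to hg38 and deposited, per 3′ interval, read counts and T>C read counts, besides conversion rates (a fraction) and a read score scaled to library size. Only the deposited counts entered the results. Submitters' notes also name Bowtie2 2.3.4.1, SAMtools 1.6 and DESeq2 1.38.2. Samples given SRPIN340 with THZ531 were not analysed here.

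Each file had 104653 intervals. Transcript names were matched to GENCODE v44 for 92910 of the 96427 intervals on primary chromosomes. The best-covered of overlapping intervals was kept, and the kept ones were summed per gene (for the 58 genes, 170 intervals gave 76, all with the T content of hg38). The test was edgeR's (version 4.0.16, R 4.3.3, with TMM scaling, filterByExpr, a robust quasi-likelihood fit over all 10 libraries, 5 residual degrees of freedom, Benjamini-Hochberg over 9946 genes in nascent RNA and 14690 in total RNA). The labelled share was tested as the interaction of treatment and read class with library as a block. Scripts were tested on simulated data. Values per library are counts per 1000000 TMM-scaled reads. Depth was 35517462 to 53592904 mapped reads, and limits on counts of 0 cover counting error only.

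Values in every library are given for the 24 genes with the smallest p among those called, and for HSPA5, DNAJB9, HERPUD1, SDF2L1, XBP1, ERN1, ATF6 and EIF2AK3 whatever their values. CRELD1, KDELR2, SRPRB and SEL1L were added after their values were seen. The genes and lists were chosen with earlier results of these data known. Of the list of epithelial and prostate markers, 2 genes are not reported here. Replicate numbers did not pair the libraries (correlation of replicate differences from -0.141 to 0.14 between groups). Alternatives were other interval rules, filters, scalings, DESeq2 1.42.0 and leaving out each library.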

Additional observations from a re-analysis of the deposited data

Results flagged for a closer look

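The effect of Endovion on nascent RNA differed with and without THZ531 for 2 genes, by a test of the interaction itself. For KDELR2 the difference was 1.60 on the log2 scale (adjusted p = 0.00251), with Endovion alone at -0.61 against control and the combination at 0.99 against THZ531. For SELENOF it was -1.20 (adjusted p = 0.0415), with Endovion alone at 1.15 and the combination at -0.05 against THZ531. Both differences used control replicate 2, and neither was called without it (1.08, adjusted p = 0.213, for KDELR2 and -0.97, adjusted p = 0.332, for SELENOF). For KDELR2 the nascent RNA of that library was 361 against 192 in control replicate 1.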

How the results depend on the processing

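Counts of ER genes called are given here where they moved by over 1.5 times. With every interval of a gene summed, overlapping ones counted again they were, in nascent RNA 0 for SRPIN340, 1 for Endovion, 3 for THZ531, 3 for the combination, 0 for the combination against THZ531, 0 for the combination against Endovion, 0 for the interaction, total RNA 0 for SRPIN340, 0 for the combination against Endovion and labelled share 0 for Endovion, 0 for THZ531, 0 for the combination. With DESeq2 they were, in nascent RNA 2 for SRPIN340, 6 for THZ531, 1 for the interaction and total RNA 14 for SRPIN340. At the limits of the methods (log2 change of 1 and unadjusted p of 0.05) they were, in nascent RNA 7 for THZ531, 5 for the combination, 1 for Endovion against SRPIN340, 5 for the interaction and total RNA 4 for Endovion, 6 for THZ531, 9 for the combination, 0 for the combination against THZ531, 0 for the combination against Endovion. With only the compared groups in the fit they were, in nascent RNA 1 for the combination against THZ531, total RNA 0 for SRPIN340, 11 for THZ531 and labelled share 5 for Endovion, 0 for THZ531. With nascent RNA scaled by total reads they were, in nascent RNA 1 for the combination against THZ531. With 1 interval per gene they were, in nascent RNA 1 for the combination against Endovion and labelled share 2 for Endovion. With no low-count filter they were, in nascent RNA 4 for the interaction, total RNA 15 for SRPIN340, 2 for the combination against THZ531 and labelled share 2 for SRPIN340, 6 for Endovion, 3 for THZ531. With each read class scaled by itself they were, in labelled share 1 for SRPIN340, 3 for Endovion, 2 for THZ531. With the share taken from converted T positions they were, in labelled share 0 for Endovion, 0 for THZ531, 0 for the combination. Replicate numbers did not pair the libraries. With the replicate number as a block the counts were, in labelled share 4 for Endovion, 2 for THZ531, and the other counts stayed within 1.5 times of those given. Leaving out each library in turn gave, in nascent RNA, 2 to 6 for SRPIN340, 3 to 10 for Endovion, 3 to 12 for THZ531, 4 to 9 for the combination, 0 to 0 for Endovion against SRPIN340, 0 to 2 for the combination against THZ531, 0 to 2 for the combination against Endovion, 0 to 5 for the interaction. Leaving out each library in turn gave, in total RNA, 0 to 18 for SRPIN340, 2 to 24 for Endovion, 8 to 30 for THZ531, 10 to 26 for the combination, 1 to 1 for the combination against THZ531, 0 to 4 for the combination against Endovion. Leaving out each library in turn gave, in labelled share, 0 to 3 for SRPIN340, 0 to 6 for Endovion, 0 to 3 for THZ531, 0 to 6 for the combination. The median nascent log2 fold change ran over the same fits from 0.059 to 0.1392 for SRPIN340, 0.0901 to 0.1362 for Endovion, 0.066 to 0.1975 for THZ531, 0.1376 to 0.2249 for the combination. Over the other settings that median moved to 0.0881 for SRPIN340 (no low-count filter), 0.0939 for SRPIN340 (DESeq2), 0.0926 for SRPIN340 (scaled by total reads), -0.0004 for Endovion (scaled by total reads), 0.2032 for the combination (no low-count filter), 0.1868 for the combination (scaled by total reads). The lowest count came without control replicate 2 for all comparisons with control but 2, the combination in nascent RNA (without combination replicate 1) and THZ531 in total RNA (without THZ531 replicate 2), and the highest came without control replicate 1. The direct comparisons with Endovion and the interaction reached 0 without Endovion replicate 1, and nascent RNA of the combination against THZ531 without THZ531 replicate 1. SRP19 turned direction with 1 interval per gene, to 0.17 with THZ531 and 0.45 with the combination, since that rule drops its far end. Of 37 nascent, 72 total RNA and 8 share calls, 5, 7 and 0 held in every alternative. Other causes were not tested. Depth limits ERN1, DNAJB9, TRAM1 and the other genes with few T>C reads.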
